A study of Canis lupus familiaris with 4 samples.

Results

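The MHC class II genes of the dog were read in RNA labelled by grade of canine mammary tumour, the highest malignancy (grade 3) and lower malignancy (grade 1). They were taken as every non-control probe whose listed name is the dog RefSeq mRNA accession of HLA-DRB1 (the DRB1 gene of the dog, listed under that symbol in the current dog annotation), DLA-DRA, DLA-DQA1, DLA-DQB1 or DLA-DOB. This gave 13 of 43603 probes on the array and 5 of the 925 named genes that were tested. HLA-DRB1 had 3 probes, DLA-DRA, DLA-DQA1 and DLA-DOB had 2 each, and DLA-DQB1 had 4.

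MHC class II molecules sit on the surface of antigen-presenting cells such as macrophages, dendritic cells and B cells and show peptides from engulfed proteins to CD4+ T cells. Each is a pair of an alpha and a beta chain, here DRA with DRB1 and DQA1 with DQB1, and DOB is a chain of a non-classical molecule that tempers peptide loading inside the cell. Outside immune cells, class II can be switched on by interferon gamma through the transactivator CIITA, and some tumour cells carry it.

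RNA of both grades was hybridised together on 4 two-colour Agilent arrays, with grade 3 in Cy5 and grade 1 in Cy3 on 2 arrays and the dyes exchanged on 2 more. By their labels these are biological replicates, but which animals or extracts they share is not said, and all 4 lay on 1 slide. The p-values thus cover the spread from array to array, which may be technical, and nothing beyond it. The sample names are of tumours, whereas the protocols describe cancer cells grown under sorted monocytes for at least 72 h and then separated by flow sorting into macrophages and cancer cells. No dog's age, breed or treatment is given, and whether tumour tissue or sorted cells were measured is not settled. Of 12 listed epithelial markers only MUC1 and CLDN3 were measured, both well above background in both grades.

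Across the whole array 35411 probes were tested. Of these, 31.2% were higher and 30.5% lower in grade 3 at a limma adjusted p under 0.05, which is what "called" means below. Among the 925 named genes, each read by its brightest probe, 24.1% were called higher and 46.1% lower. The median log2 fold change was 0.00 over all tested probes and -0.09 over the named genes. Every fold change below is relative to the other probes of the same array.

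All 13 class II probes were lower in grade 3, on every array. The 52 single-array log2 ratios of grade 3 over grade 1 ran from -2.02 to -0.52, and no probe had a value above 0. By the brightest probe of each gene, the DR genes were lower by 2.12-fold (HLA-DRB1) and 1.65-fold (DLA-DRA), the DQ genes by 1.97-fold (DLA-DQB1) and 1.63-fold (DLA-DQA1), and DLA-DOB by 1.99-fold. All 13 probes and all 5 genes were called lower, against the 30.5% of probes and 46.1% of named genes given above. The median log2 fold change of the 5 genes was -0.98, and of the 13 probes -0.96. Only 4.2% of the tested probes had a fold change as low as the least reduced class II probe.

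**Figure D1:**
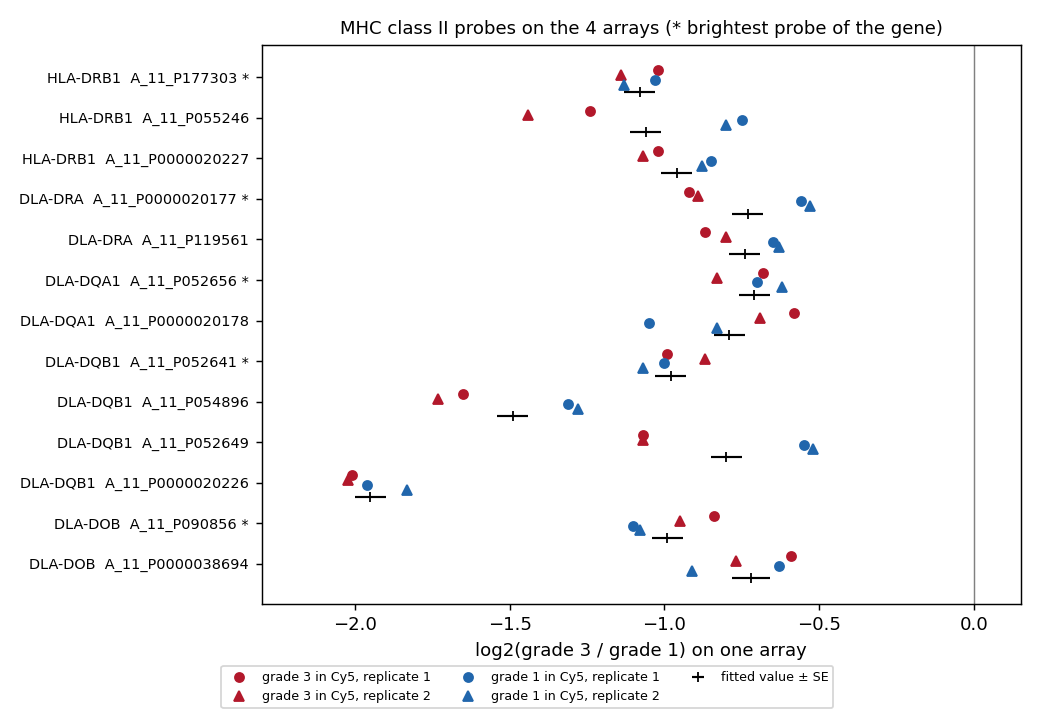
Log2 ratio of grade 3 over grade 1 for each of the 13 class II probes (rows) on each of the 4 arrays (points), red where grade 3 was in Cy5 and blue where grade 1 was in Cy5, with the fitted value ± SE as a black bar. All 52 points lie below 0, and the DLA-DQB1 probes spread most, with fitted values from -1.95 to -0.80.

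HLA-DRB1 encodes the polymorphic beta chain of DR, the chain that lines the variable side of the peptide groove. Its brightest probe, A_11_P177303 (RefSeq NM_001014768), had log2 ratios of -1.02 and -1.14 on the arrays with grade 3 in Cy5 and of -1.03 and -1.13 on those with grade 1 in Cy5. As processed here, the arrays of the 2 dye orientations thus gave nearly the same values. With the scanner software's processed signals the values were -1.32 and -1.46 with grade 3 in Cy5. With grade 1 in Cy5 they were -0.78 and -0.92. The fitted log2 fold change was -1.08 ± 0.05 (SE, n = 4 arrays, limma adjusted p = 8.64e-08), with a 95% interval from -1.19 to -0.97. The log2 level was 16.64 ± 0.17 in grade 3 and 17.72 ± 0.16 in grade 1 (SD, n = 4).

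The scanned signals of this probe were among the brightest read here, and none was saturated. On replicate 1 with grade 3 in Cy5 it read 178015 units in grade 3 and 121026 in grade 1, while on replicate 1 with grade 1 in Cy5 it read 93322.5 and 232121. In the first of these the unadjusted signal was higher in grade 3, so there the lower ratio appears only after normalization of the 2 channels. The same held on replicate 2 with grade 3 in Cy5 (162636 in grade 3 and 148705 in grade 1). On replicate 1 with grade 3 in Cy5 it also held for the brightest probes of DLA-DRA (33464 and 25589.5) and DLA-DQB1 (59802.5 and 44779.5). There it held for those of DLA-DQA1 (2952 and 2246) and DLA-DOB (1344 and 1190.5) as well. On replicate 2 with grade 3 in Cy5 it held for DLA-DRA and DLA-DQB1 but not for DLA-DQA1 and DLA-DOB. The median over all probes was higher in the grade 3 channel on every array, whichever dye it had. It was 402 units against 215 on replicate 1 with grade 3 in Cy5, and 324 against 289 on replicate 1 with grade 1 in Cy5.

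The other HLA-DRB1 probes fell by similar amounts. A_11_P0000020227 was 1.94-fold lower (log2 fold change -0.96), with array values of -1.02, -1.07, -0.85 and -0.88. A_11_P055246 was 2.08-fold lower (-1.06) but depended on the dye. It had -1.24 and -1.44 with grade 3 in Cy5 and -0.75 and -0.80 with grade 1 in Cy5, a dye term of -0.28 ± 0.05 (limma adjusted p = 0.00966).

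DLA-DRA encodes the alpha chain that pairs with DRB1 and varies little between individuals. Its brightest probe, A_11_P0000020177 (RefSeq NM_001011723), had log2 ratios of -0.92 and -0.89 with grade 3 in Cy5 and of -0.56 and -0.53 with grade 1 in Cy5. The fall was larger on the arrays with grade 3 in Cy5, and the dye term of -0.18 ± 0.05 was called (limma adjusted p = 0.0258). The fitted fold change was -0.73 ± 0.05 (1.65-fold lower, limma adjusted p = 7.96e-07), between levels of 14.53 ± 0.10 in grade 3 and 15.26 ± 0.12 in grade 1. The second probe, A_11_P119561, was 1.67-fold lower, with -0.87, -0.80, -0.65 and -0.63 on the 4 arrays. The 2 DLA-DRA probes had fitted values only 0.01 apart.

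DLA-DQA1 encodes the alpha chain of DQ. A_11_P052656 (RefSeq NM_001011726) had log2 ratios of -0.68, -0.83, -0.70 and -0.62, a fitted value of -0.71 ± 0.05 (1.63-fold lower, limma adjusted p = 1.69e-06). Its level in grade 1 was the steadiest among the probes that stand for the 5 genes, 11.70 ± 0.01, against 11.00 ± 0.09 in grade 3. The second probe, A_11_P0000020178, was 1.73-fold lower and spread more, from -1.05 to -0.58.

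DLA-DQB1 encodes the beta chain of DQ, a polymorphic partner of DQA1, and its 4 probes (all listed under RefSeq NM_001014381) differed more than those of any other class II gene here. The brightest, A_11_P052641, had log2 ratios of -0.99, -0.87, -1.0 and -1.07 and a fitted value of -0.98 ± 0.05 (1.97-fold lower, limma adjusted p = 1.54e-07). Its level was 15.16 ± 0.16 in grade 3 and 16.14 ± 0.09 in grade 1.

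A_11_P0000020226 showed the largest fall of all 13 probes, with -2.01, -2.02, -1.96 and -1.83 on the 4 arrays. It was 3.87-fold lower (log2 fold change -1.95 ± 0.05, limma adjusted p = 1.74e-09), and its scanned signal on replicate 1 with grade 1 in Cy5 was 2822 units in grade 3 and 9543 in grade 1. A_11_P054896 was 2.81-fold lower, between -1.73 and -1.28. A_11_P052649 was 1.74-fold lower, with -1.07 on both arrays with grade 3 in Cy5 and -0.55 and -0.52 on the others. The dye terms of these last 2 probes were called (-0.20, limma adjusted p = 0.0205, and -0.27, limma adjusted p = 0.00782).

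The array ranges of A_11_P0000020226 and of each of the other DLA-DQB1 probes did not overlap. Its ratio was lower than that of A_11_P052641 on 4 of 4 arrays, by a mean of 0.97 ± 0.16 on the log2 scale (SD over 4 arrays). An exact two-sided sign-flip permutation test gave p = 0.125, the smallest that 4 arrays allow, and 0.214 after Benjamini-Hochberg adjustment over the 12 pairs of probes of one gene. Averaged over its 4 probes, DLA-DQB1 was 2.47-fold lower and was then the most reduced of the 5 genes, ahead of HLA-DRB1 with 2.04-fold. Which alleles or paralogs each probe binds was not tested, and the beta chain genes are similar enough in sequence to share signal.

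DLA-DOB is the beta chain of DO, an inhibitor of peptide exchange that is best known from B cells. A_11_P090856 (RefSeq NM_001048127) had log2 ratios of -0.84, -0.95, -1.10 and -1.08, a fitted value of -0.99 ± 0.05 (1.99-fold lower, limma adjusted p = 1.27e-07). Its level was 9.81 ± 0.08 in grade 3 and 10.80 ± 0.06 in grade 1. The second probe, A_11_P0000038694, was the dimmest of the 13, with scanned signals from 80 to 99 units in grade 3 and from 103 to 151.5 in grade 1 on local backgrounds of 26 to 40. Its size was the least certain: 1.65-fold lower as processed here, 3.04-fold with the scanner software's processed signals, and 1.29-fold and not called with local backgrounds as measured (limma adjusted p = 0.124).

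**Figure D2:**
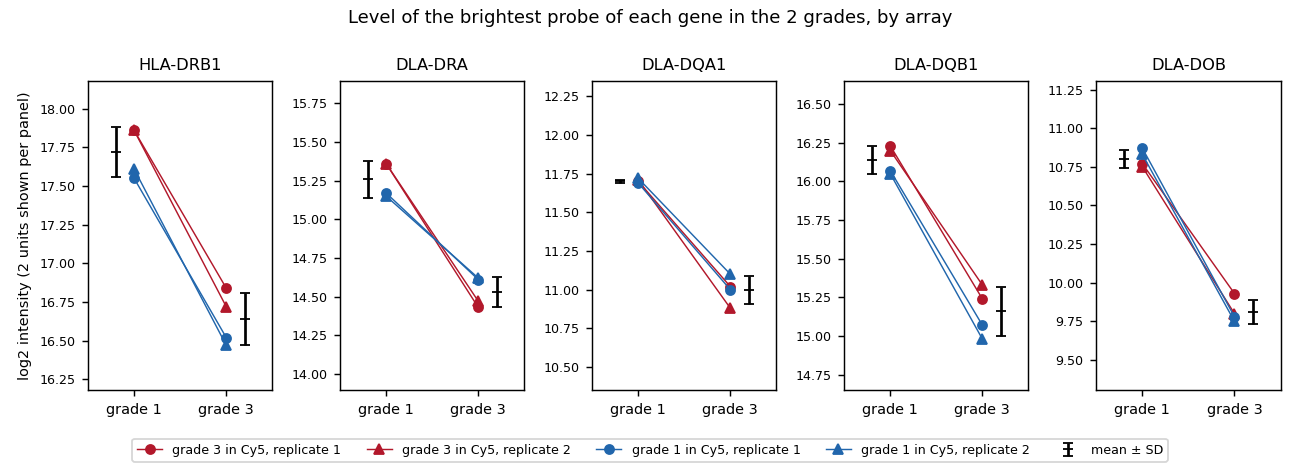
Log2 intensity of the brightest probe of each class II gene in grade 1 and grade 3 on the 4 arrays, with lines joining the grades of one array and black bars for the mean ± SD. Each panel spans 2 log2 units around its own centre, and in each the grade 3 points lie below all grade 1 points.

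In none of the 13 probes did the grades overlap over the 4 arrays, while 21.3% of all tested probes were likewise lower in grade 3 without overlap. The smallest gap between the lowest grade 1 level and the highest grade 3 level was 0.39 on the log2 scale, for the second DLA-DQA1 probe, and the largest 1.68, for DLA-DQB1 probe A_11_P0000020226. On every array and in both grades the 13 probes read well above background. A called dye term was found in 4 of 13 probes, against 19.9% of all tested probes. By the brightest probe of each gene, HLA-DRB1, DLA-DOB and DLA-DQB1 had 95% intervals that overlap one another (-1.19 to -0.97, -1.10 to -0.88 and -1.09 to -0.87). DLA-DRA and DLA-DQA1 lay above them, at -0.83 to -0.62 and -0.82 to -0.59. This split did not hold for every probe. DLA-DQB1 probe A_11_P052649 (-0.90 to -0.70) and DLA-DOB probe A_11_P0000038694 (-0.86 to -0.59) overlapped the DLA-DRA and DLA-DQA1 intervals. The remaining probes of HLA-DRB1 and DLA-DQB1 did not overlap those intervals of the brightest DLA-DRA and DLA-DQA1 probes. The second DLA-DQA1 probe, A_11_P0000020178 (-0.91 to -0.67), overlapped the brightest DLA-DQB1 and DLA-DOB probes. It also overlapped HLA-DRB1 probe A_11_P0000020227 (-1.06 to -0.85).

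Scaling to spike-in RNA changed the size of every class II value. The 10 spike-in probes averaged -0.67 (log2, grade 3 over grade 1), and with them set to 0 the median of all tested probes became 0.67. All 13 class II probes stayed below 0 with spike-in scaling, and 7 were called lower. Of the 35411 tested probes, 918 were called lower and 32259 higher. The spike-in mean of an array was taken from all its probes, so they share its error. The limma fit treats that error as separate for each probe, so calls and p-values with spike-in scaling, here and below, do not measure it. DLA-DQB1 probe A_11_P0000020226 had -1.29 (limma adjusted p = 1.51e-35), against -1.95 (1.74e-09) as processed here. With spike-in scaling HLA-DRB1 was 1.33-fold, DLA-DOB 1.25-fold and DLA-DQB1 1.24-fold lower. DLA-DRA (log2 fold change -0.06, limma adjusted p = 0.575) and DLA-DQA1 (-0.04, limma adjusted p = 0.712) were not called. Whether the RNA came from mixed or sorted cells is not settled, and fewer class II-bearing cells and less class II RNA per cell cannot be told apart.

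**Figure D3:**
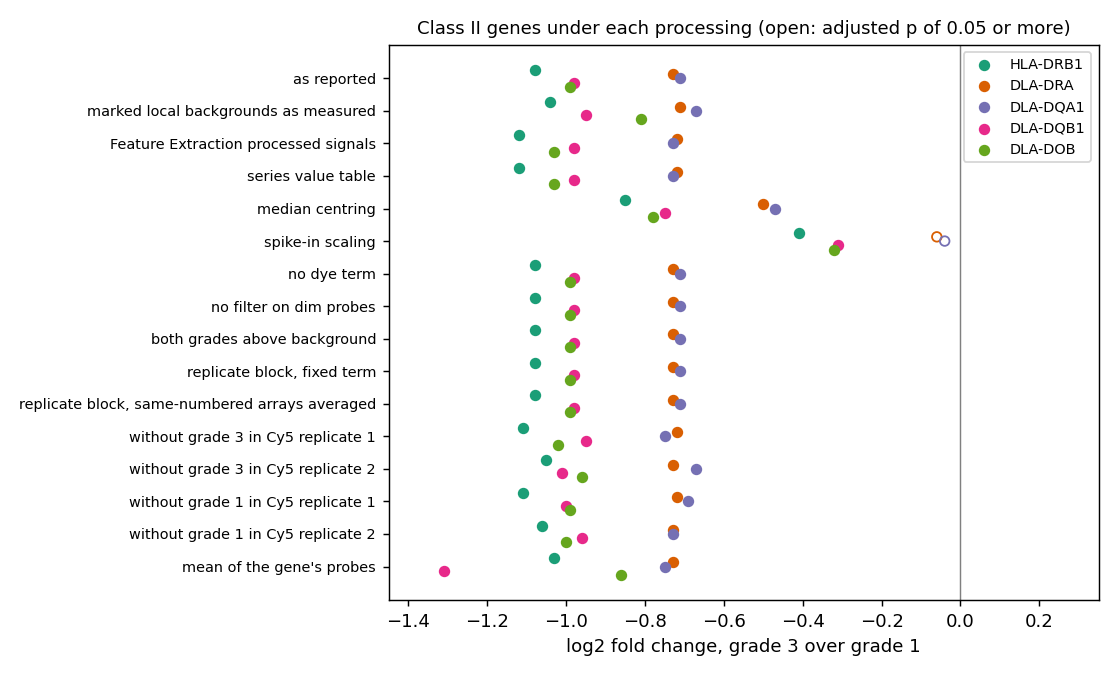
Log2 fold change of the brightest probe of each class II gene, or of the mean of its probes in the lowest row, under each processing (rows). Filled points have a limma adjusted p under 0.05 and open points do not. All points lie below 0, and the only open ones are DLA-DRA and DLA-DQA1 with spike-in scaling, at -0.06 and -0.04.

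Genes that load class II or cut the peptides for it went both ways. Of 20 listed genes 3 were measured, and 2 were called lower and 1 higher (median -0.71 on the log2 scale). DLA-DMA, a chain of the DM molecule that loads peptides and is inhibited by DO, was 1.64-fold lower (-0.71 ± 0.05, limma adjusted p = 9.22e-07). CTSS, the cathepsin that trims the invariant chain, was 1.90-fold lower (-0.93 ± 0.05). CTSD, a lysosomal protease of most cell types, was 1.88-fold higher (0.91 ± 0.07, limma adjusted p = 2.78e-06). With spike-in scaling DLA-DMA had -0.04 (limma adjusted p = 0.669) and CTSS -0.26 (limma adjusted p = 0.0111). CD74 and CIITA were not analysed here.

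Among 23 listed regulators and inducers of class II, 5 were measured, of which 4 were called lower and none higher, with a median of -0.46. With spike-in scaling 3 were instead called higher, as were 32259 of the 35411 tested probes. IL4, a B cell activator of class II, was 1.40-fold lower, IL10, a cytokine that lowers class II on monocytes, 1.39-fold, and SOCS3, an inhibitor of cytokine signalling, 1.38-fold. The array ratios of IL10 were -0.11 and -0.25 with grade 3 in Cy5 and -0.84 and -0.69 with grade 1 in Cy5. IFNG, the main inducer of CIITA, was 1.26-fold lower, but was well above background on only 1 of 4 arrays in grade 3. TNF, an inflammatory cytokine, had a log2 fold change of 0.12 (limma adjusted p = 0.0756), and was called higher with spike-in scaling (0.79) and median centring (0.14). With spike-in scaling IL4, IL10, SOCS3 and IFNG turned to between 0.19 and 0.34, and IFNG (0.34) and SOCS3 (0.20) were called higher. With local backgrounds as measured IL4, SOCS3 and IFNG were not called, and with processed signals IFNG was 4-fold and IL4 2.16-fold lower.

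Class I genes, which present peptides to CD8+ T cells, were also lower except with spike-in scaling, where their median turned to 0.16. Of 22 listed class I genes 7 were measured, and 6 were called lower, with a median of -0.51 beside the -0.98 of the class II genes, and the difference between the lists was not tested. PSMB9, an immunoproteasome subunit, was 1.92-fold lower, the class I heavy chain genes DLA-79, DLA-64 and DLA88 1.74-fold, 1.60-fold and 1.42-fold, and PSMB8 and TAPBP, a further subunit and the peptide-loading chaperone tapasin, 1.42-fold each. CANX, a general chaperone, had -0.09 (limma adjusted p = 0.108), and was called higher with spike-in scaling (0.57) and median centring (0.15). With spike-in scaling DLA88, PSMB8 and TAPBP turned to between 0.16 and 0.17, DLA-79 and DLA-64 were no longer called, and PSMB9 was still called lower, by 1.21-fold.

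Of 15 listed genes of T cell recognition and costimulation 9 were measured, and 7 were called lower and none higher, with a median of -0.42. The counts were 2 lower and 5 higher with spike-in scaling and 5 lower and 2 higher with median centring. Over all 35411 tested probes the counts were 918 lower and 32259 higher with spike-in scaling, and 8839 and 15623 with median centring. CD40, an activating receptor of antigen-presenting cells, and CD86, a ligand on them for CD28 and CTLA4, were 2.02-fold and 1.92-fold lower, and 1.27-fold and 1.21-fold lower, still called, with spike-in scaling. CD80, which shares its receptors with CD86, had -0.03 (limma adjusted p = 0.588) by its brightest probe, though the mean of its 2 probes was called lower (-0.32), and the adhesion molecule ICAM1 had 0.03. The array ratios of ICAM1 differed in sign, with -0.17 and -0.52 with grade 3 in Cy5 and 0.32 and 0.48 with grade 1 in Cy5. CD80 and ICAM1 were both called higher with spike-in scaling (0.63 and 0.69) and with median centring (0.17 and 0.26). The T cell receptors CTLA4 and CD28 were 1.70-fold and 1.39-fold lower, and CD40LG and the class II coreceptor CD4 1.14-fold and 1.13-fold. Further probes had -0.63 for CD40, -0.67 for CTLA4, -0.06 for CD40LG and -0.22 for ICAM1. For ICOS, a T cell costimulator, no array had a grade 3 signal well above background, so its size is not settled. Its levels of 6.19 in grade 3 and 6.61 in grade 1 give 1.34-fold, while local backgrounds as measured gave 1.15-fold and processed signals 3.5-fold. With spike-in scaling CD28, ICOS, CD40LG and CD4 turned to between 0.19 and 0.49, and CTLA4 was not called. The calls of CTLA4, CD28, ICOS, CD40LG and CD4 were lost with local backgrounds as measured. CD40LG also lost its call without replicate 2 of either orientation (limma adjusted p = 0.065 without that with grade 3 in Cy5, 0.172 without that with grade 1 in Cy5), with median centring (0.123), with no dye term (0.0754) and as the mean of its probes (0.0758). CD4 lost its call without replicate 2 with grade 1 in Cy5 (limma adjusted p = 0.0729) and with median centring (0.0664).

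**Figure D4:**
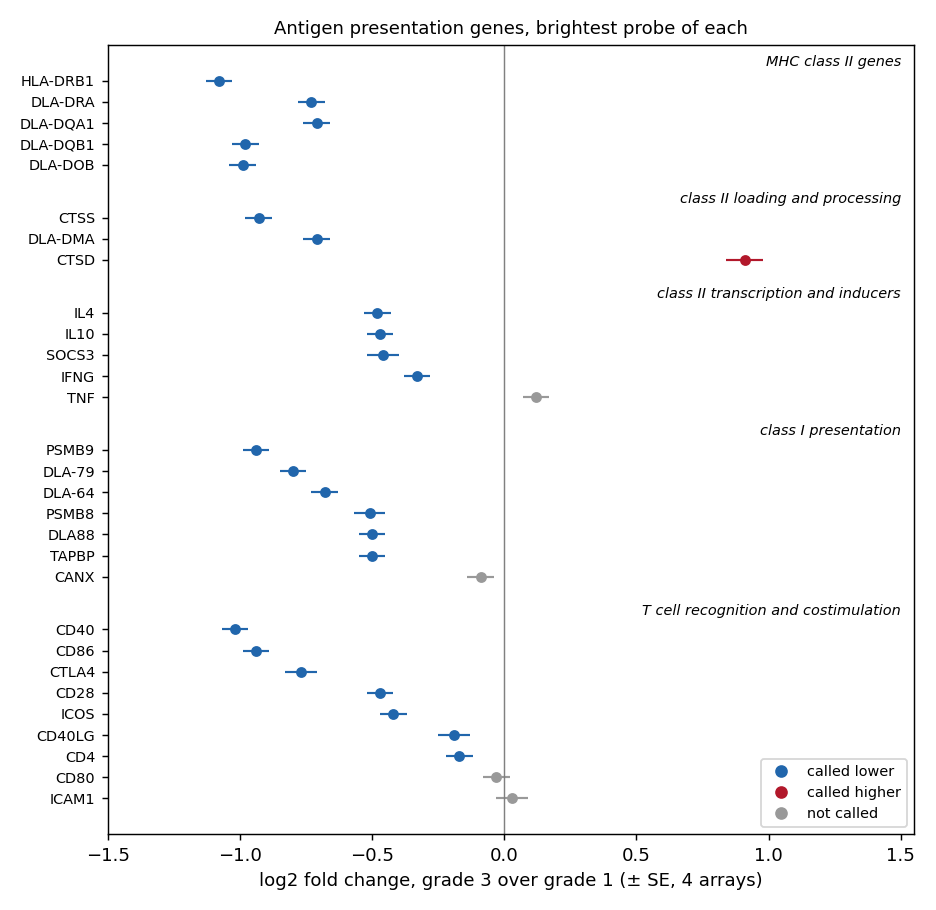
Log2 fold change ± SE (n = 4 arrays) of the brightest probe of each class II gene and of each measured gene of the 4 antigen presentation lists, coloured by call. The class II genes lie between -1.08 and -0.71, CTSD at 0.91 is the only gene called higher with the processing shown, and with spike-in scaling the class II genes stay below 0 while 11 of the genes called lower here turn above it.

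By the medians of their lists, markers of macrophages and B cells were lower too. Those of dendritic, T and NK cells were lower except with spike-in scaling. With local backgrounds as measured, 1 of 4 dendritic cell, 1 of 2 B cell and 0 of 6 T and NK cell markers were called lower. All 6 measured of 17 macrophage and monocyte markers were called lower, with a median of -0.93, and their mean log2 level ran from 11.54 to 11.63 over the arrays in grade 3 and from 12.48 to 12.56 in grade 1. FCGR1A, an Fc receptor gene, was 2.59-fold lower, CD163, a scavenger receptor gene, 2.20-fold and CCL2, a monocyte chemokine gene, 2.06-fold. Of 14 dendritic cell markers 4 were measured and 3 were called lower (median -0.39, levels 7.67 to 7.86 against 8.13 to 8.22), CD209 by 1.73-fold, FLT3 by 1.39-fold and CD1B by 1.23-fold. The remaining dendritic cell marker was not called (0.10, limma adjusted p = 0.165). FLT3 and CD1B lost their calls with local backgrounds as measured (limma adjusted p = 0.108 and 0.206), and CD209 with spike-in scaling (-0.12, 0.232). Both measured of 10 B cell markers were called lower (median -1.01, levels 8.65 to 8.94 against 9.62 to 9.89), MS4A1 by 2.92-fold and CD38 by 1.39-fold. MS4A1 was 1.88-fold lower and not called with local backgrounds as measured (limma adjusted p = 0.077) and 5-fold lower with processed signals.

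All 6 measured of 16 T and NK cell markers, 3 of which (CD4, CD28 and CTLA4) are also in the T cell recognition list, were called lower (median -0.42, levels 7.40 to 7.45 against 7.92 to 8.04), with the NK receptor gene KLRD1 2.65-fold lower. KLRD1 lost its call with local backgrounds as measured (1.75-fold, limma adjusted p = 0.0673) and was 4.66-fold lower with processed signals. Of the 2 epithelial markers measured, MUC1 was 2.27-fold higher and CLDN3 had 0.11 (limma adjusted p = 0.0814) but was called higher with spike-in scaling (0.78) and median centring (0.36). The mean epithelial level was 10.88 to 11.24 in grade 3 and 10.29 to 10.48 in grade 1. All measured markers of these 5 lists were well above background on every array in both grades, and none was at 0. Spike-in scaling turned CD1B, FLT3 and CD38 to 0.37, 0.20 and 0.19. With it the median of the macrophage markers was -0.26 (3 of 6 called lower) and of the B cell markers -0.34 (1 of 2), while the medians of the dendritic and the T and NK cell markers turned to 0.28 and 0.25. All 6 T and NK cell markers lost their calls with local backgrounds as measured (median -0.21). The part of these cells in the class II result was not tested.

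Among 919 named genes outside the class II set, each read by its brightest probe only, 6 had array patterns closest to the median class II gene. Closeness was measured as the root mean square difference of the 4 log2 ratios. That median was -0.92 and -0.89 with grade 3 in Cy5 and -1.0 and -1.07 with grade 1 in Cy5. The closest were CCL20 (difference 0.06), CEACAM1 (0.07), CD40 (0.08), PDE5A (0.08), PSMB9 (0.09) and CD86 (0.09), which were 1.92-fold to 2.02-fold lower, or 1.21-fold to 1.27-fold with spike-in scaling. CCL20, a chemokine gene, had ratios of -0.95, -0.89, -1.04 and -1.17. The class II genes themselves differed from their median by 0.03 for DLA-DQB1, 0.07 for DLA-DOB, 0.14 for HLA-DRB1, 0.30 for DLA-DQA1 and 0.35 for DLA-DRA.

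In the dog assembly UU_Cfam_GSD_1.0 the 5 genes lie in the order DLA-DRA, HLA-DRB1, DLA-DQA1, DLA-DQB1, LOC100856137 (an unnamed gene model, not analysed here) and DLA-DOB, followed by the antigen processing genes TAP2, PSMB8, TAP1 and PSMB9 and then by DLA-DMB, DLA-DMA, BRD2 and DLA-DOA. Of the 14 genes from DLA-DRA to DLA-DOA 9 were measured, with 8 called lower and 1 higher, and with spike-in scaling 4 lower and 1 higher. Among all named genes tested, 46.1% were called lower and 24.1% higher as processed here. The 8 genes called lower were the 5 class II genes themselves and PSMB8, PSMB9 and DLA-DMA, already counted in the lists above. The one called higher was BRD2, a chromatin reader gene with no role in antigen presentation, by 1.14-fold (0.19 ± 0.05, limma adjusted p = 0.00666). That call was lost with local backgrounds as measured (0.359) and without replicate 2 with grade 1 in Cy5 (0.0806).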

How the data were processed

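Agilent Feature Extraction 10.7.3.1 read the arrays, as the submitters' processing notes state. The signals and local backgrounds in the deposited files are linear intensity values. The deposited LogRatio column and series value table are log10 ratios; they differed by at most 4.99e-06 once dye-swapped arrays were turned to grade 3 over grade 1, so the table has that direction, and each of its columns has a median of 0.

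Median signals were processed in R 4.3.3 with limma 3.58.1. Local backgrounds marked as outliers by the software (151 to 2352 per array and channel) were replaced by the array and channel median, normexp used an offset of 50, and loess gave control spots no weight. Outlier-marked spots (11 to 39 per array, none for class II) were left out. A probe was tested if, in 1 grade or both, all 4 arrays read it well above background. The limma fit had a grade and a dye term (2 residual degrees of freedom, 7.49 prior), with two-sided p-values adjusted by Benjamini-Hochberg across the 35411 tested probes, threshold 0.05. It was checked on simulated data. Levels are single-channel log2 values after Aquantile. Alternatives covered the background, scaling, dye term, filter, replicate block, mean of probes and each array left out.

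Precision is limited by the number of arrays. The median signal was 215 to 402 units on backgrounds of 28 to 41, and 80.6% to 84.5% of probes were well above background. Probes were named by RefSeq accession (1648 of 43603 matched), and the brightest tested probe stood for a gene. Named are all class II probes, the measured genes of the 4 presentation lists, the 3 markers of each cell type with the smallest p, the 6 genes closest to the class II median and, chosen after its value was seen, BRD2. The members, lists and settings were chosen with earlier results of these data known. Coordinates were not used, since the array design (canFam2) and the gene table differ in build. No probe sequences are shown.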

Additional observations from a re-analysis of the deposited data

Results flagged for a closer look

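In 52 results (13 class II probes and 39 other named genes) the 4 array ratios were searched for one that stood far from the rest, and 1 was found. The T cell receptor gene CTLA4 read -0.57 (log2, grade 3 over grade 1) on replicate 2 of the orientation with grade 3 in Cy5, while the remaining arrays read -0.84, -0.84 and -0.82. The gap of that value to its nearest neighbour was 0.907 of the whole range. Chance marks about 1 in 20 groups of 4. No class II probe was marked.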

How the results depend on the processing

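The calls of the 5 class II genes held under every alternative run except spike-in scaling, where 3 of 5 genes and 7 of 13 probes were called lower, with DLA-DRA at -0.06 and DLA-DQA1 at -0.04. The median of the 5 genes was -0.31 with spike-in scaling, -0.75 with median centring and -0.81 with local backgrounds as measured. Leaving out 1 array at a time it ran from -0.99 to -0.95, with all 5 genes and 13 probes called. With the replicate number as a block, as a fixed term or by averaging same-numbered arrays, it stayed at -0.98 and no class II call changed; deviations of same-numbered arrays correlated at -0.09, so the numbers were not taken to pair the arrays, and the block gave 10925 or 11623 probes higher and 10641 or 11268 lower. Over all probes 11031 were called higher and 10801 lower; local backgrounds as measured gave 2327 and 4411, and spike-in scaling 32259 and 918. The share of calls that were higher was 50.5%, but 63.9% with median centring, 34.5% with backgrounds as measured and 97.2% with spike-in scaling. Spike-in scaling turned 14 of 39 other named genes: CD1B 0.37, IFNG 0.34, CD4 0.49, CD40LG 0.48, ICOS 0.25, SOCS3 and FLT3 0.20, CD28, CD38, IL10 and IL4 0.19, DLA88 and TAPBP 0.17, and PSMB8 0.16. It raised 5 others, not called as reported, past the threshold (CANX 0.57, CD80 0.63, CLDN3 0.78, ICAM1 0.69 and TNF 0.79), and median centring did so too (0.15, 0.17, 0.36, 0.26 and 0.14). Spike-in scaling also turned the medians of the regulators of class II to 0.20, of class I presentation to 0.16 and of T cell recognition to 0.25. The cause of these changes was not tested. Calls with spike-in scaling do not measure the error of the spike-in means, which all probes of an array share. Signal over background limits the dimmer DLA-DOB probe, IFNG and ICOS.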
